A study of Mus musculus with 42 samples.

Results

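The genes described here are 40 collagens, laminins, other extracellular matrix proteins, matrix proteases with their inhibitors, and vessel wall genes. They were chosen by name, from an earlier account of these same libraries in which Mmp2 and Postn stood among the strongest differences of Ts65Dn mice from the other genotypes. All 40 had a line among the 52636 gene lines of the count files, and all 40 were among the 17173 genes with enough reads to be tested. RNA came from primary neuronal cultures, which were prepared from forebrain at embryonic day 16, with 3 libraries for each of the 3 genotypes, and the labels describe the cultures as pooled from both sexes. Per the methods of the study, AraC was added to hold back the growth of glial cells. The cultures were grown further before RNA was collected, so they do not stand for tissue of that day. Binding of SMARCA2 and SMARCA4, the ATPases of the BAF remodelling complex, was mapped by ChIP-seq in whole hippocampus of male mice 6 to 8 weeks old. Open chromatin was mapped by ATAC-seq in NeuN-positive, that is neuronal, nuclei sorted from male hippocampus. The peaks therefore came from other tissue and another age than the RNA. Euploid mice carry the usual chromosomes. Ts65Dn mice carry an additional chromosome segment with distal chromosome 16 and a piece of proximal chromosome 17, and model Down syndrome. Ts65Dn;Brwd1+/- mice carry that same segment together with 1 mutated allele of Brwd1, a bromodomain gene within it: the repro5 mutation, which is carried in the germline. All were bred on 1 mixed background from Ts65Dn mothers and Brwd1+/- fathers. None of the matrix genes lay in the additional segment (0 of 40). Bgn and Timp1 lie on the X chromosome.

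The extracellular matrix is the protein scaffold outside cells. Fibrillar collagens form its cables, basement membranes of type IV collagen, laminin and nidogen line vessels and the brain surface, and fibronectin, fibrillins and small proteoglycans link these networks to each other and to receptors on cells. In brain most of this matrix is made by fibroblasts of the meninges and by cells of the vessel wall, while neurons and glia rely on a matrix of hyaluronan and lecticans. Metalloproteases such as MMP2 cut the network, and TIMP proteins block them.

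Of the 40 genes, 31 stood higher in all 3 Ts65Dn cultures than in all 6 others, an order that 23.8% of all tested genes had, among them the fibrillar collagens other than Col3a1 and both type IV collagen chains. In the cultures labelled Ts65Dn;Brwd1+/-, of the 37 genes other than Mmp2, Postn and Lum, 15 (40.5%) passed the test as lower than euploid, where 15.2% of all tested genes did, led by Col3a1, Col1a2 and Col5a2. Lum is left out since it had enough reads only in euploid, where it was highest. Timp1 is kept among the 37 and was not called, although only Ts65Dn stood above a handful of reads in it. A further 6 (16.2%) passed as higher, among them Fbn2, Col6a1 and Dcn, a share near the 14% of all tested genes.

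The libraries held 17270070 to 25892802 reads assigned to genes, and the rows that name no gene, which made up 37.4 to 40.0% of each file's total, were left out. The biological coefficient of variation, the relative spread between libraries of a genotype beyond counting error, was 0.120. Within a genotype the libraries correlated across genes at 0.983 to 0.994, and between genotypes at 0.902 to 0.975. Values are CPM, read counts brought to a common library size with TMM, unless said otherwise. Brwd1 itself was at 85.9 to 93.2 CPM in euploid, 125 to 129 in Ts65Dn and 124 to 146 in the cultures labelled Ts65Dn;Brwd1+/-. The last range was not below Ts65Dn, which goes against the label, and whether the reads came in part from the mutated allele was not tested. The cultures also differed in sex. Xist, the RNA of the inactive X chromosome, was at 1410 to 1980 CPM in the cultures labelled Ts65Dn;Brwd1+/- and at no more than 1.12 in the others. Eif2s3y, a Y-linked gene, had no reads in the former and 78.7 to 93.9 CPM in the latter. Every comparison with the cultures labelled Ts65Dn;Brwd1+/- therefore also set cultures with Xist against cultures with Y-linked RNA, and genotype and sex cannot be told apart. Nothing in the sources used here says that the 3 libraries of a genotype came from separate litters or days, so a p-value measures the spread between these libraries only.

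The name of fibroblast and vascular genes was checked against markers that are not among the 40. Of 12 endothelial markers 8 were under 1 CPM in every library, Pecam1, Cdh5, Tek, Tie1, Esam, Emcn and Erg among them, and Cldn5 had no read in any library. Of 12 mural cell markers 5 were under 1 CPM throughout, including Kcnj8, Abcc9 and Higd1b, which define brain pericytes. Of 12 meningeal fibroblast markers 4 were under 1 CPM throughout, including Tbx18 and Slc22a6. The other 4 endothelial, 7 mural and 8 meningeal markers reached 1 CPM in at least 1 library. Of the 6 meningeal markers with enough reads in more than 1 genotype, 4 were called higher in Ts65Dn than in euploid and 0 lower, where 25.6 and 21.1% of all tested genes were. The transcription factors Foxc1 and Twist1 were higher by 1.29 ± 0.17 and 1.77 ± 0.39 on the log2 scale and called lower again in the cultures labelled Ts65Dn;Brwd1+/- than in Ts65Dn, and no call was made for Pdgfra and Crabp2. Foxd1 had enough reads only in Ts65Dn, at 0.794 to 1.10 CPM, and Slc6a13, a GABA transporter, only in euploid, at 0.455 to 1.54 CPM, so neither is counted. Since each marker list was detected only in part, the genes are called matrix genes here, with no cell type in the name. The endothelial, mural and meningeal sums were all highest in Ts65Dn, while only the mural sum was also below euploid in the cultures labelled Ts65Dn;Brwd1+/-. Mural markers summed to 281 to 359 CPM in euploid, 859 to 1287 in Ts65Dn and 217 to 243 in the cultures labelled Ts65Dn;Brwd1+/-. Most of that was Acta2, smooth muscle actin, at 220 to 283, 745 to 1132 and 85 to 116 CPM in the same order. Acta2 and Tagln were called lower than euploid in the cultures labelled Ts65Dn;Brwd1+/-, while Cspg4 and Notch3 were called higher. Cspg4 was at 6.21 to 7.38, 16.4 to 19.2 and 36.8 to 52.0 CPM, so the mural sum does not speak for each marker. Endothelial markers summed to 83.6 to 93.6, 658 to 865 and 88.8 to 131 CPM, nearly all of it Kdr, a VEGF receptor, at 78.9 to 87.6, 651 to 858 and 85.3 to 127. Meningeal markers summed to 318 to 387, 529 to 710 and 346 to 384 CPM. In that list Ogn, a small proteoglycan, was lowest in the cultures labelled Ts65Dn;Brwd1+/-, while Pdgfra was highest there, at 114 to 136 CPM against 16.9 to 20.6 in euploid. Neuronal markers summed to 4158 to 5156 CPM in euploid, 1076 to 2737 in Ts65Dn, with replicate 3 the lowest, and 4281 to 5402 in the cultures labelled Ts65Dn;Brwd1+/-. Astrocyte markers summed to 6282 to 7260, 8204 to 9385 and 6506 to 7503 CPM, and microglial markers to 26.9 to 38.6, 44.6 to 54.8 and 18.5 to 25.2. Choroid plexus markers summed to 172 to 779 CPM in euploid, where replicate 2 was the highest, 235 to 283 in Ts65Dn and 64.1 to 72.8 in the cultures labelled Ts65Dn;Brwd1+/-. Against euploid, the cultures labelled Ts65Dn;Brwd1+/- were called higher and lower for 2 and 2 of 8 mural markers counted, 0 and 1 of 5 endothelial, 2 and 2 of 6 meningeal, 1 and 9 of 11 choroid plexus, 3 and 1 of 11 astrocyte, and 0 and 6 of 8 microglial markers, where 14 and 15.2% of all tested genes were. The small counts of the mural, endothelial, meningeal and astrocyte lists cannot be set apart from that background. For the 12 neuronal markers no call was made in either direction. The part of cell makeup in the matrix values was not tested, and in such bulk RNA more cells of a type cannot be told apart from more RNA per cell.

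**Figure D1:**
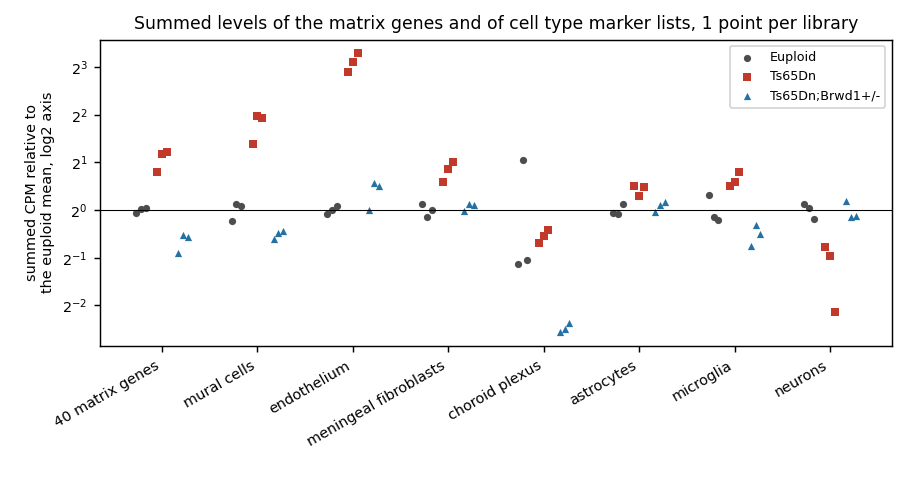
Summed CPM of the 40 matrix genes and of 7 lists of 12 cell type markers, each relative to its mean over the 3 euploid cultures (log2 axis), with 1 point per library and the genotypes in colour and shape. The mural and endothelial sums stood highest in the 3 Ts65Dn libraries, and the neuronal sum stood lowest there.

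Across the 40 genes, Ts65Dn was the high group. Summed over the genes, the level was 10533 to 11340 CPM in euploid, 19312 to 25854 in Ts65Dn and 5931 to 7713 in the cultures labelled Ts65Dn;Brwd1+/-. Sparc alone made up 47.2 to 57.0% of this sum, but without it the order was the same, at 4570 to 5204, 9582 to 13651 and 3090 to 3865 CPM. By gene, 33 were called higher and 4 lower in Ts65Dn than in euploid (edgeR, adjusted p under 0.05), where 25.6% of all tested genes were higher and 21.1% lower. The 4 include Lum, which had enough reads only in euploid, where it was highest. The 33 include Timp1, which stood above a handful of reads only in Ts65Dn. The matrix genes had a median log2 fold change of 1.20, against 0.04 for all genes. Against Ts65Dn, 4 were called higher and 32 lower in the cultures labelled Ts65Dn;Brwd1+/-, where 27.6% of all genes were higher and 30.5% lower, with a median of −1.82 against 0.00. Both of these contrasts took part in choosing the genes, so their counts and fold changes describe the list and are given without p-values. Without Ts65Dn replicate 3, the library with the least neuronal RNA, the calls were 33 higher and 3 lower in the former contrast and 4 higher and 31 lower in the latter.

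Beside the 31 genes with all 3 Ts65Dn libraries above all 6 others, in 3 genes, Col6a3, Lum and Dcn, they lay below all 6, as in 20.3% of all genes. Lum among these 3, and Timp1 among the 31, had few reads outside the group where they were highest. In the remaining 6 genes, Col3a1, Col6a1, Lama1, Lama4, Fbn2 and Mmp14, they did neither. Of the 31 genes high in Ts65Dn, 20 had all cultures labelled Ts65Dn;Brwd1+/- below all euploid libraries, as did 43.5% of the 4086 tested genes that were high in Ts65Dn in the same way, 2 had them above, Nid1 and Loxl1, and in 9 both groups overlapped.

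**Figure D2:**
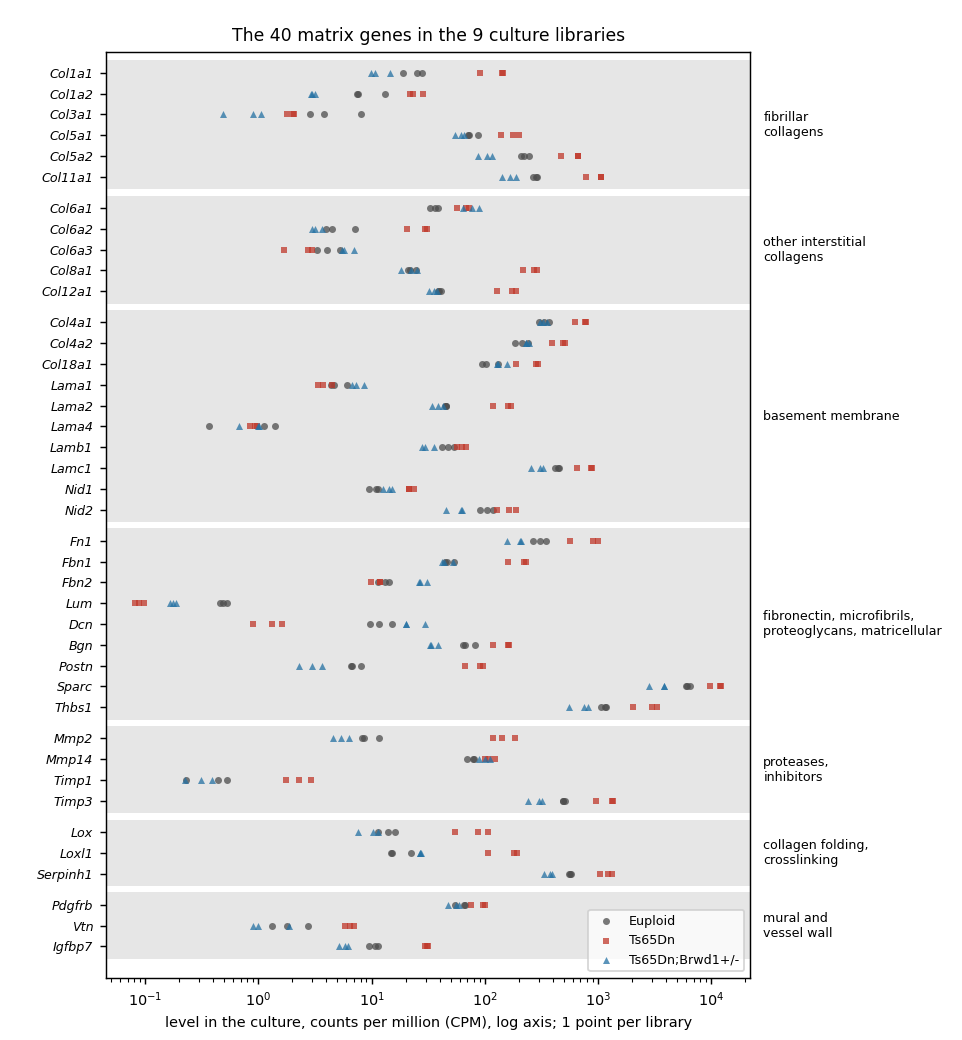
CPM (log axis) of the 40 matrix genes, in rows by group, in the 9 culture libraries, 1 point per library, with the genotypes in colour and shape. The Ts65Dn points lie to the right of all others in 31 rows, and to the left of all others for Col6a3, Lum and Dcn.

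Per kilobase of exon, which allows levels of different genes to be compared, Sparc was the highest matrix gene in every genotype, with means of 1626, 2974 and 924.5 CPM per kilobase in euploid, Ts65Dn and the cultures labelled Ts65Dn;Brwd1+/-. The lowest was Lama4 in euploid and Lum in both others. Of the 40 genes, 20 stood above the median of all tested genes in euploid, 28 in Ts65Dn and 19 in the cultures labelled Ts65Dn;Brwd1+/-. The median matrix gene was at 4.39, 17.9 and 3.89 CPM per kilobase, beside 4.46, 4.50 and 4.43 for all tested genes.

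The comparison of the cultures labelled Ts65Dn;Brwd1+/- with euploid is the contrast that the choice of genes did not use, although it shares its libraries with those that were used. Mmp2 and Postn, which led to the list, and Lum are left out of its counts. The median log2 fold change of the other 37 was −0.40 and that of all genes −0.02. All 3 cultures labelled Ts65Dn;Brwd1+/- were below all euploid libraries in 19 of the 37 (51.4%, against 23.6% of all genes) and above them in 8 (21.6%, against 22.3%). By group, 5 of 6 fibrillar collagens were lower, 1 of 5 other interstitial collagens was higher, and of 10 basement membrane genes 2 were higher and 3 lower. Of 7 linking and matricellular genes 2 were higher and 4 lower, of 3 proteases and inhibitors 1 was higher and 1 lower, and of 3 crosslinking and folding genes and 3 vessel wall genes 1 each was lower. Beside the 14% higher and 15.2% lower of all tested genes, the counts of 1 to 3 in these groups are too few to read. Without replicate 2 or 3 of the cultures labelled Ts65Dn;Brwd1+/-, 3 were called higher in place of 6. No call was made for 16 genes, which does not show that their levels were alike. Changes are given as log2 fold changes ± SE of the edgeR quasi-likelihood fit on 9 libraries, 3 per genotype, with p-values adjusted by Benjamini-Hochberg over all 17173 tested genes.

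**Figure D3:**
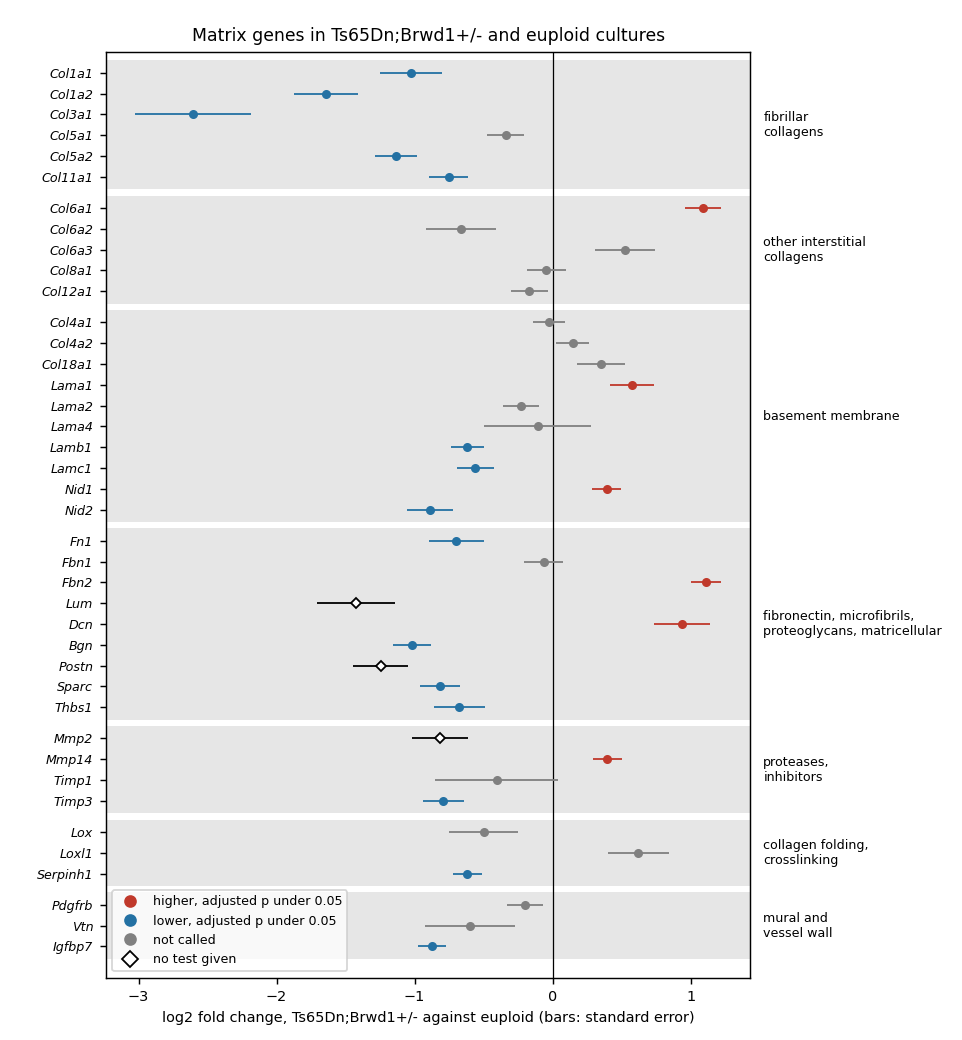
Log2 fold change of the cultures labelled Ts65Dn;Brwd1+/- against euploid for the matrix genes, in rows by group, with bars of 1 standard error from the edgeR fit. Colour marks genes past an adjusted p of 0.05, grey those not called, and open diamonds Mmp2, Postn and Lum, for which no test is given. All 6 fibrillar collagens lie left of 0, and Fbn2, Col6a1 and Dcn lie farthest to the right.

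Among the proteases and their inhibitors, Mmp2, the gelatinase that cuts type IV and denatured collagen (chr8:92827291-92853420, plus strand, mm10), was at 8.20, 11.6 and 8.51 CPM in the euploid libraries, 119, 141 and 183 in Ts65Dn, and 4.55, 6.29 and 5.38 in those labelled Ts65Dn;Brwd1+/-. The 3 groups did not overlap and followed the order Ts65Dn, euploid, Ts65Dn;Brwd1+/-. Its log2 fold change was 3.96 ± 0.20 (SE, n = 3 per group) for Ts65Dn against euploid and −0.81 ± 0.21 for the cultures labelled Ts65Dn;Brwd1+/- against euploid, both without a test. Mmp14, the membrane protease that activates pro-MMP2, differed far less, at 69.2, 78.3 and 81.0 CPM in euploid, 101, 109 and 122 in Ts65Dn and 89.7, 100 and 111 in the cultures labelled Ts65Dn;Brwd1+/-. Here both trisomic groups were above euploid and overlapped each other. Mmp14 rose in the cultures labelled Ts65Dn;Brwd1+/- against euploid by 0.40 ± 0.10 (adjusted p = 0.0158), a call lost without euploid replicate 1 or without replicate 2 or 3 of the other group. Timp3, the inhibitor that stays bound to the matrix, was at 490, 495 and 514 CPM in euploid, 964, 1367 and 1329 in Ts65Dn, and 240, 323 and 303 in the cultures labelled Ts65Dn;Brwd1+/-, lower than euploid by a log2 fold change of −0.79 ± 0.15 (adjusted p = 0.00287). Timp1, the inhibitor that is induced in injury, had 9, 12 and 5 reads in the euploid libraries, 43, 46 and 66 in Ts65Dn, and 7, 7 and 6 in those labelled Ts65Dn;Brwd1+/-, so that only Ts65Dn stood above a handful of reads. Timp1 is X-linked, and a part of sex in its values was not tested. Per kilobase, Mmp2 stood at 0.0400 to 0.0567 of the Timp3 level in euploid, 0.249 to 0.334 in Ts65Dn and 0.0428 to 0.0471 in the cultures labelled Ts65Dn;Brwd1+/-. The ratio of this protease to this inhibitor was thus higher in Ts65Dn than in all other libraries, and the other ranges overlapped.

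Postn encodes periostin, a matricellular protein that binds collagen and integrins (chr3:54361109-54391037, plus strand). It was at 6.55, 8.03 and 6.78 CPM in euploid, 67.2, 90.3 and 95.5 in Ts65Dn, and 2.27, 3.01 and 3.66 in the cultures labelled Ts65Dn;Brwd1+/-. Its groups did not overlap either, with log2 fold changes of 3.56 ± 0.17 for Ts65Dn against euploid and −1.25 ± 0.20 for the cultures labelled Ts65Dn;Brwd1+/- against euploid. A promoter window of Postn, from RefSeq (GRCm38.p6, chr3:54360857-54361156, plus strand, 250 bases before to 50 after the start), is shown since Postn and Mmp2 led to the list. It is not the only RefSeq window of Postn, and the letters CCAAT were found in Postn outside it. Capitals mark the letters TATAAA, the letters CCAAT or the letters GGGCGG on either strand, in this window a single TATAAA shortly before the start.
Postn promoter: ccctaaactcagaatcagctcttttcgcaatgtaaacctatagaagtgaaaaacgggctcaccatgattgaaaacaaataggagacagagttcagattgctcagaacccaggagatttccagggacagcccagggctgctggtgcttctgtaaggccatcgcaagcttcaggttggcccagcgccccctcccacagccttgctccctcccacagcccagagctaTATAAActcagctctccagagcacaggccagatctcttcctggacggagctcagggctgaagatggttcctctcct

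Several of the other matricellular and linking proteins had the order of Postn. Fn1, fibronectin, was at 267, 344 and 310 CPM in euploid, 563, 997 and 902 in Ts65Dn and 156, 208 and 203 in the cultures labelled Ts65Dn;Brwd1+/-. Thbs1, thrombospondin-1, an activator of latent TGF-beta, was at 1065, 1187 and 1142, then 2049, 3010 and 3309, then 558, 819 and 746 CPM. Sparc, an abundant collagen-binding glycoprotein made also by astrocytes, was at 5963, 6058.5 and 6462, then 9730, 11866 and 12202, then 2840.5, 3848 and 3817 CPM. In these 3 genes no group overlapped another, and the cultures labelled Ts65Dn;Brwd1+/- were the lowest. They fell below euploid by log2 fold changes of −0.70 ± 0.20 for Fn1 (adjusted p = 0.0256), −0.68 ± 0.19 for Thbs1 (adjusted p = 0.0206) and −0.82 ± 0.14 for Sparc (adjusted p = 0.00224). The call for Fn1 was lost without euploid replicate 2 or 3 or replicate 1 of the other group, and that for Thbs1 without euploid replicate 2 or that same replicate 1. Bgn, biglycan, a small proteoglycan that binds collagen, likewise fell by 1.02 ± 0.14 (adjusted p = 0.000522), from 64.5 to 81.5 CPM in euploid to 32.8 to 38.3. Bgn is X-linked, so for its own locus, too, sex and genotype cannot be told apart.

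The small proteoglycan Dcn, decorin, ran the other way. It was at 15.3, 11.6 and 9.61 CPM in euploid, 1.31, 0.889 and 1.63 in Ts65Dn, and 29.4, 20.3 and 20.2 in the cultures labelled Ts65Dn;Brwd1+/-. Again no groups overlapped, with Ts65Dn lowest in place of highest, and the cultures labelled Ts65Dn;Brwd1+/- rose above euploid by 0.94 ± 0.20 (adjusted p = 0.00656). Lum, lumican, which lies 47.0 kb from Dcn on chromosome 10 and regulates collagen fibril width as decorin does, was close to the limit of detection, with 10, 12 and 10 reads in euploid, 2 in each Ts65Dn library, and 4, 3 and 5 in those labelled Ts65Dn;Brwd1+/-. It reached the reads needed for testing only in euploid, the group where it was highest, so no test is given.

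The fibrillins, which build elastic microfibrils, split. Fbn1 was at 44.9, 53.3 and 46.1 CPM in euploid, 160, 221 and 230 in Ts65Dn and 42.2, 51.9 and 44.0 in the cultures labelled Ts65Dn;Brwd1+/-, so that only Ts65Dn stood apart. Fbn2, the form made mostly in embryos, was at 13.1, 14.2 and 11.5, then 11.8, 11.9 and 9.97, then 30.6, 26.1 and 27.0 CPM. Here the cultures labelled Ts65Dn;Brwd1+/- stood above all others, and the rise over euploid of 1.11 ± 0.11 had the smallest adjusted p of the matrix genes tested (7.68e-05). Per kilobase, Fbn1 was 3.74 to 4.36 times Fbn2 in euploid, 14.8 to 25.1 times in Ts65Dn and 1.5 to 2.17 times in the cultures labelled Ts65Dn;Brwd1+/-.

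Of the 6 fibrillar collagen genes, 5 were higher in Ts65Dn than in all other libraries, and all 6 were lower in every library labelled Ts65Dn;Brwd1+/- than in every euploid library. Col1a1 and Col1a2 encode the chains of type I collagen. Col1a1 (chr11:94936224-94953042, plus strand) was at 18.9, 27.9 and 25.0 CPM in euploid, 90.6, 146 and 143 in Ts65Dn and 10.7, 9.85 and 14.5 in the cultures labelled Ts65Dn;Brwd1+/-. Col1a2 was at 7.38, 13.1 and 7.65, then 21.9, 28.4 and 23, then 3.17, 2.95 and 2.91 CPM. Their log2 fold changes to euploid were −1.03 ± 0.22 (adjusted p = 0.00646) and −1.64 ± 0.23 (adjusted p = 0.000618). The genes moved unequally, since per kilobase Col1a1 was 4.03 to 6.20 times Col1a2 in euploid, 7.83 to 11.8 times in Ts65Dn and 6.32 to 9.44 times in the cultures labelled Ts65Dn;Brwd1+/-.

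Col3a1, the type III collagen that runs with type I in loose tissue, was the exception among fibrillar collagens. It was at 3.79, 8.07 and 2.87 CPM in euploid, 2.04, 1.78 and 2.07 in Ts65Dn and 0.491, 1.06 and 0.896 in the cultures labelled Ts65Dn;Brwd1+/-. The groups did not overlap, but euploid was highest, and the log2 fold change of −2.60 ± 0.42 (adjusted p = 0.00128) to euploid was the deepest among the tested matrix genes. Its convergent neighbour Col5a2, 24.6 kb away on chromosome 1, encodes a type V chain that starts fibrils and ran with the majority, at 208, 247 and 220, then 473, 668 and 660, then 87.3, 116 and 104 CPM. Col5a2 fell by 1.14 ± 0.15 against euploid (adjusted p = 0.000424). Col11a1, a fibril-starting chain typical of cartilage, was the most abundant of the 6 in reads, at 267, 290 and 282, then 781, 1073 and 1070, then 142, 189 and 167 CPM, and fell by 0.75 ± 0.14 (adjusted p = 0.00292). Col5a1, the partner chain of Col5a2, was at 70.8, 86.6 and 72.8, then 140, 176 and 199, then 55.0, 65.2 and 61.7 CPM, and its log2 fold change of −0.34 ± 0.13 to euploid missed the threshold (adjusted p = 0.0815), although it passed without Ts65Dn replicate 1 or 3. Per kilobase, Col5a1 was at 0.374 to 0.397 of Col5a2 in euploid, 0.297 to 0.341 in Ts65Dn and 0.638 to 0.711 in the cultures labelled Ts65Dn;Brwd1+/-, which did not overlap.

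Among the other interstitial collagens, Col8a1, a short-chain collagen of vessel walls, separated Ts65Dn most, at 21.7, 24.9 and 21.0 CPM in euploid, 216, 287 and 272 in Ts65Dn and 18.2, 25.1 and 22.3 in the cultures labelled Ts65Dn;Brwd1+/-. The last overlapped euploid, with a log2 fold change of −0.05 ± 0.14 (adjusted p = 0.843), whose sign changed when euploid replicate 2 or replicate 1 of the other group was left out. Col12a1, which decorates fibrils, had the same shape at 38.9 to 41.0, 127 to 189 and 31.9 to 38.2 CPM, although its last range lay wholly below euploid (−0.17 ± 0.14, adjusted p = 0.397).

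The type VI collagen genes, whose chains assemble together into beaded filaments, moved apart. Col6a1 was at 32.8, 39.0 and 36.2 CPM in euploid, 56.8, 68.3 and 73.1 in Ts65Dn and 64.5, 76.9 and 88.4 in the cultures labelled Ts65Dn;Brwd1+/-, so that both trisomic groups lay above euploid and overlapped. It rose by 1.09 ± 0.13 against euploid (adjusted p = 0.000257). Col6a2, on the same strand 85.2 kb away, was at 3.93, 7.15 and 4.46, then 20.5, 29.5 and 31.0, then 2.99, 3.17 and 3.66 CPM, and did not pass against euploid (−0.66 ± 0.25, adjusted p = 0.0778), although every such library was below every euploid library and the call was made without Ts65Dn replicate 1 or 3. Col6a3, on chromosome 1, was at 4.03, 5.26 and 3.32, then 2.74, 3.01 and 1.68, then 7.0, 5.73 and 5.45 CPM, the reverse order. Its log2 fold change of 0.52 ± 0.22 to euploid did not pass (adjusted p = 0.1), but did without euploid replicate 2 or Ts65Dn replicate 3. Per kilobase, Col6a1 was 10.4 to 15.9 times Col6a2 in euploid, 4.39 to 5.26 times in Ts65Dn and 41.1 to 46.1 times in the cultures labelled Ts65Dn;Brwd1+/-. Both promoters, from the same RefSeq table, are shown as those of neighbours with unlike values, at chr10:76725995-76726294 for Col6a1 and chr10:76623355-76623654 for Col6a2, each on the minus strand. Capitals mark the same letters as before, absent from the Col6a1 window and present in that of Col6a2 only as CCGCCC, the reverse complement of GGGCGG.
Col6a1 promoter: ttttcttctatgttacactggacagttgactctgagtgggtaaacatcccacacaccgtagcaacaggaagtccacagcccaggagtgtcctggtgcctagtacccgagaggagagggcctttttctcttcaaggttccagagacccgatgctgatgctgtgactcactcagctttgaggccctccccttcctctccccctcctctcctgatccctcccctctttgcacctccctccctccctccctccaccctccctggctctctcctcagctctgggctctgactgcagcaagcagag
Col6a2 promoter: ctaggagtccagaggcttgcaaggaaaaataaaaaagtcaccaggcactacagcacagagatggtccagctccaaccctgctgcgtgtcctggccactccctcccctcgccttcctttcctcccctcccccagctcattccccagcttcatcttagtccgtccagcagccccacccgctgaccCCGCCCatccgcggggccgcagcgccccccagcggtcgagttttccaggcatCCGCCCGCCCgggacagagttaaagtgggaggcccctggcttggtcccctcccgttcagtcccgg

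**Figure D4:**
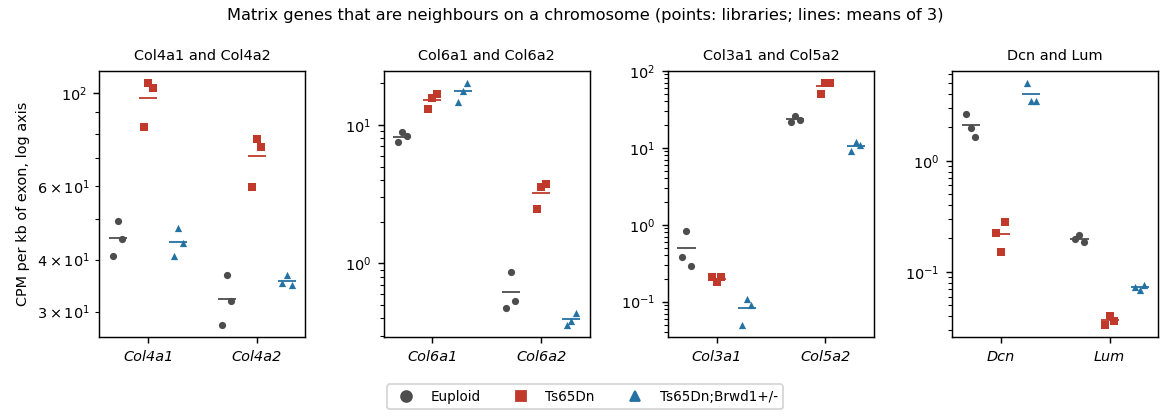
Level per kilobase of exon (log axis) of 4 pairs of matrix genes that are neighbours on a chromosome, in the 9 culture libraries, with 1 point per library and lines at the mean of 3. Ts65Dn is highest for both Col4a1 and Col4a2 and lowest for both Dcn and Lum, although euploid and Ts65Dn;Brwd1+/- change places between Dcn and Lum. Within the pairs Col6a1 and Col6a2, and Col3a1 and Col5a2, the genotypes are also ordered differently.

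In the basement membrane group, the type IV collagen genes Col4a1 and Col4a2 moved together. They start head to head on chromosome 8 and overlap by 22 bases at their 5′ ends. Col4a1 was at 304, 369 and 333 CPM in euploid, 622, 790 and 772 in Ts65Dn and 305, 356 and 327 in the cultures labelled Ts65Dn;Brwd1+/-. Col4a2 was at 185, 243 and 211, then 396, 515 and 492, then 232, 244 and 230 CPM. For both, Ts65Dn stood apart and the other groups overlapped, with log2 fold changes to euploid of −0.03 ± 0.12 (adjusted p = 0.888) and 0.15 ± 0.12 (adjusted p = 0.418). Col4a1 changed sign under library total scaling and without euploid replicate 2. The ratio of Col4a1 to Col4a2 per kilobase was 1.35 to 1.46 in euploid, 1.36 to 1.39 in Ts65Dn and 1.16 to 1.30 in the cultures labelled Ts65Dn;Brwd1+/-, the last below both others. Col18a1, the collagen that releases endostatin, was at 94 to 130 CPM in euploid, 189 to 296 in Ts65Dn and 129 to 157 in the cultures labelled Ts65Dn;Brwd1+/-.

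The laminins and nidogens of the basement membrane did not share a pattern. Lamc1, the gamma chain found in most laminins, was the most abundant, at 417, 455 and 440 CPM in euploid, 652, 869 and 890 in Ts65Dn and 255, 329 and 306 in the cultures labelled Ts65Dn;Brwd1+/-, and fell by 0.56 ± 0.13 against euploid (adjusted p = 0.0104). Its beta partner Lamb1 was at 47.8, 53.3 and 42.3, then 56.6, 68.0 and 63.4, then 35.8, 29.9 and 27.8 CPM, and fell by 0.62 ± 0.12 (adjusted p = 0.00347). Among the alpha chains, which carry the receptor-binding ends, Lama2 of muscle and vessel laminins was high in Ts65Dn only, at 44.6 to 45.8, 118 to 169 and 34.3 to 42.5 CPM. Lama1 of embryonic and meningeal basement membranes was instead highest in the cultures labelled Ts65Dn;Brwd1+/-, at 4.66, 6.05 and 4.42, then 3.39, 4.49 and 3.71, then 6.78, 8.63 and 7.24 CPM. Its rise of 0.57 ± 0.16 over euploid (adjusted p = 0.0226) was lost without euploid replicate 1 or 3 or without replicate 2 or 3 of the other group. Lama4 of endothelial basement membranes had only 8 to 32 reads in any library, and its groups overlapped throughout, with a sign to euploid that changed with 1 library.

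Nidogens bridge laminin and type IV collagen. Nid2 was at 90.3, 119 and 105 CPM in euploid, 129, 164 and 187 in Ts65Dn and 45.3, 63.3 and 61.1 in the cultures labelled Ts65Dn;Brwd1+/-, and fell by 0.89 ± 0.17 against euploid (adjusted p = 0.00292). Nid1 was at 10.9, 11.5 and 9.51, then 21.4, 21.6 and 23.8, then 12.5, 15.3 and 14.2 CPM. Of the 31 genes high in Ts65Dn it was the only one called higher against euploid in the fit reported here, by 0.39 ± 0.11 (adjusted p = 0.0202), a call lost without euploid replicate 3 or without replicate 2 or 3 of the other group. Relative to euploid, these bridging proteins thus went opposite ways in the cultures labelled Ts65Dn;Brwd1+/-.

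The genes that fold and crosslink collagen were high in Ts65Dn without overlap. Serpinh1, the HSP47 chaperone of procollagen, was at 552, 579 and 566 CPM in euploid, 1034, 1213 and 1327 in Ts65Dn and 334, 393 and 379 in the cultures labelled Ts65Dn;Brwd1+/-, and fell by 0.62 ± 0.11 against euploid (adjusted p = 0.00191). Lox, the lysyl oxidase that crosslinks collagen and elastin, was at 13.9, 16.1 and 11.5, then 54.3, 86.5 and 106, then 7.67, 11.5 and 10.3 CPM (−0.50 ± 0.25 to euploid, adjusted p = 0.168). Its relative Loxl1, which serves elastic fibres, was at 15.1, 22.3 and 15.0, then 107, 182 and 194, then 27.2, 26.8 and 26.8 CPM. Loxl1 and Nid1 were the genes high in Ts65Dn whose cultures labelled Ts65Dn;Brwd1+/- lay above all euploid libraries, and Loxl1 missed the threshold at 0.62 ± 0.22 (adjusted p = 0.0593), passing without euploid replicate 2 or Ts65Dn replicate 1 or 3 and in DESeq2.

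Of the mural and vessel wall genes, Igfbp7, which binds insulin-like growth factors, was at 11.4, 9.47 and 10.7 CPM in euploid, 29.5, 30.6 and 31.5 in Ts65Dn and 5.17, 5.85 and 6.16 in the cultures labelled Ts65Dn;Brwd1+/-, and fell by 0.87 ± 0.10 against euploid (adjusted p = 0.000229). Vtn, vitronectin, an adhesion protein made by pericytes, was at 1.31, 1.80 and 2.73, then 5.80, 6.47 and 7.06, then 0.892, 1.00 and 1.87 CPM (−0.60 ± 0.33, adjusted p = 0.206, which passed without replicate 3 of the cultures labelled Ts65Dn;Brwd1+/-). Pdgfrb, the PDGF receptor that marks mural cells, was at 54.3, 65.1 and 67.4, then 74.8, 96.5 and 99.7, then 47.8, 55.7 and 59.4 CPM (−0.20 ± 0.13, adjusted p = 0.294). Ts65Dn was above all other libraries in each of these 3 genes, least so for the receptor.

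The likeness of patterns was described by Pearson's r of log2 CPM over the 9 culture libraries, which share genotype, depth and cell makeup, so no p is given. Of the 39 other matrix genes, 26 correlated with Mmp2 above 0.9, 4 below −0.7, and 9 lay between. The share of all tested genes past these limits was not counted, so the numbers describe the list only. Outside the list, the 5 genes most like Mmp2 were Scara5 (r = 0.9987), Irx5 (0.9977), Sulf1 (0.9975), Colec12 (0.9967) and Flnc (0.9965). Scara5, a ferritin receptor, was at 3.78 to 5.22 CPM in euploid, 46.7 to 61.7 in Ts65Dn and 2.36 to 2.90 in the cultures labelled Ts65Dn;Brwd1+/-. Irx5, a homeobox gene 451.0 kb from Mmp2 on chromosome 8, was at 1.18 to 1.75, 23 to 34.8 and 0.612 to 0.635 CPM. The 5 most like Postn were Spats2l (r = 0.9982), Aldh1a1 (0.9977), Ctsd (0.9977), Pdgfc (0.9970) and Gas6 (0.9967), with Aldh1a1, a retinaldehyde dehydrogenase, at 10.9 to 11.6, 66.1 to 73.0 and 5.93 to 7.13 CPM. Picked for their high r, these genes had the same order of the 3 genotypes as Mmp2 and Postn, without overlap, which the choice by r leads to.

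Genes that work with the matrix but are not among the 40 were examined in 6 lists, of which 104 genes were tested. In Ts65Dn against euploid 70 were called higher and 9 lower. In the cultures labelled Ts65Dn;Brwd1+/- they were higher for 10 and lower for 75 against Ts65Dn, and higher for 9 and lower for 40 against euploid, beside the backgrounds given above. The lists differed in this last contrast. Of 20 other collagens, 6 were higher and 4 lower, with a median of 0.11, and among them Col15a1 (1.40 ± 0.25, adjusted p = 0.00244), a vessel-associated collagen, Col16a1 (0.83 ± 0.14, adjusted p = 0.0015) and Col9a1 (0.72 ± 0.22, adjusted p = 0.0325) rose most. Col8a2, the partner of Col8a1, fell by 0.99 ± 0.12 (adjusted p = 0.000258), and the X-linked type IV chains Col4a6 and Col4a5 had changes of −0.90 ± 0.12 (adjusted p = 0.000428) and −0.85 ± 0.13 (adjusted p = 0.000838). Of 12 other basement membrane genes 2 were higher and 5 lower. The calcium-binding SMOC proteins parted there, Smoc1 at 1.41 ± 0.15 (adjusted p = 0.000142) and Smoc2 at −1.63 ± 0.20 (adjusted p = 0.000251).

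The remaining lists were called almost only lower against euploid in the cultures labelled Ts65Dn;Brwd1+/-. Of 17 genes of collagen maturation none was higher and 8 were lower, with a median of −0.38. The endoplasmic reticulum retrieval receptor Kdelr3 fell by 1.08 ± 0.14 (adjusted p = 0.00037), the prolyl hydroxylase P4ha1 fell by 0.93 ± 0.11 (adjusted p = 0.000247) and the lysyl hydroxylase Plod2 fell by 0.69 ± 0.14 (adjusted p = 0.00445). Of 18 TGF-beta pathway genes 0 were higher and 8 lower (median −0.37), among them Ltbp2 (−2.19 ± 0.19, adjusted p = 3.9e-05), a fibrillin-binding protein, the co-receptor Tgfbr3 (−1.67 ± 0.13, adjusted p = 2.59e-05) and the target gene Ccn2 (−1.28 ± 0.17, adjusted p = 0.000387). Of 18 matrix receptors 0 were higher and 9 lower (median −0.36), led by the collagen receptors Ddr2 (−1.28 ± 0.13, adjusted p = 0.000107) and Itga1 (−1.11 ± 0.18, adjusted p = 0.00124). Of 19 other proteases and inhibitors 6 were lower, such as Plat, tissue plasminogen activator (−1.04 ± 0.11, adjusted p = 0.000139), and 1 was higher, the aggrecanase Adamts5 (1.13 ± 0.13, adjusted p = 0.000198). Adamts5, with Adamts1, lies in the additional segment, unlike every other gene of these lists.

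RefSeq promoter windows could be matched to 24 of the 40 genes (27 windows). They were not found for Col1a1, Col5a2, Col12a1, Lama1, Lama4, Lamc1, Nid2, Fn1, Fbn2, Lum, Dcn, Thbs1, Mmp2, Lox, Loxl1 and Pdgfrb. Letters of 6 motifs were searched on both strands of each window. The TATA box TATAAA was in 3 of the 27 (11.1%) and in 13.6% of all 32851 windows, the CCAAT box CCAAT in 37.0 and 37.4%, and the GC box GGGCGG in 70.4 and 35.7%. The AP-1 letters TGAGTCA were in 3.70 and 5.20%, the TEAD letters CATTCC in 22.2 and 14.7%, and the E-box letters CACCTG in 14.8 and 20.2%. These are counts of letters and not of bound sites. The promoters of Col1a2 (chr6:4505368-4505667, plus strand), the type I chain with the largest deficit against euploid, and Col8a1 (chr16:57754688-57754987, minus strand), the collagen with the largest fold change in Ts65Dn, are shown as windows with several GC box letters, with capitals as before.
Col1a2 promoter: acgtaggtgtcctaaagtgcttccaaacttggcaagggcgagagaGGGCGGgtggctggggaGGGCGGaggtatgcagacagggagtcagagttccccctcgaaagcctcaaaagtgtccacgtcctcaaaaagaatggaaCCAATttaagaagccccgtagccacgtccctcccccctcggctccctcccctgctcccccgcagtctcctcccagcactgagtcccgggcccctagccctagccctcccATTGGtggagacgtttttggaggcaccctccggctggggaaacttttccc
Col8a1 promoter: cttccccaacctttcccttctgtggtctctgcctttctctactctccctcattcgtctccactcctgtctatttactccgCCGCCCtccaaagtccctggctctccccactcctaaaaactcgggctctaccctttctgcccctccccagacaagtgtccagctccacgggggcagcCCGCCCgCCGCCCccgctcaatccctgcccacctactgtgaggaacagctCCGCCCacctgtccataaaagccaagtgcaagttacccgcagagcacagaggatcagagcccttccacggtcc

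In adult hippocampus each assay had 1 peak list per genotype, pooled over animals, so peak counts have no replicate error and no test. In the order euploid, Ts65Dn, Ts65Dn;Brwd1+/-, the SMARCA2/4 lists held 22667, 1290 and 1873 peaks and the ATAC lists 15521, 29195 and 30244. The annotation in the files named 8 of the 40 genes in the euploid SMARCA2/4 list (20%, against 29.4% of protein-coding genes), 2 in Ts65Dn (background 3.24%) and 2 in Ts65Dn;Brwd1+/- (3.71%). ATAC peaks named 6, 16 and 16 genes in the same order, beside backgrounds of 41.1, 51.9 and 51.8%. At promoters, within 3 kb of the start, SMARCA2/4 peaks named 4, 0 and 0 genes (25.6, 2.01 and 2.48%) and ATAC peaks 3, 10 and 7 (38.2, 47.4 and 47.0%). The shares of matrix genes were below the share of all protein-coding genes in 4 of the 6 lists, and the counts of 2 in the small SMARCA2/4 lists are too few to read against it. The nuclei sorted for ATAC were neuronal, which are not the cells that make most of this matrix.

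**Figure D5:**
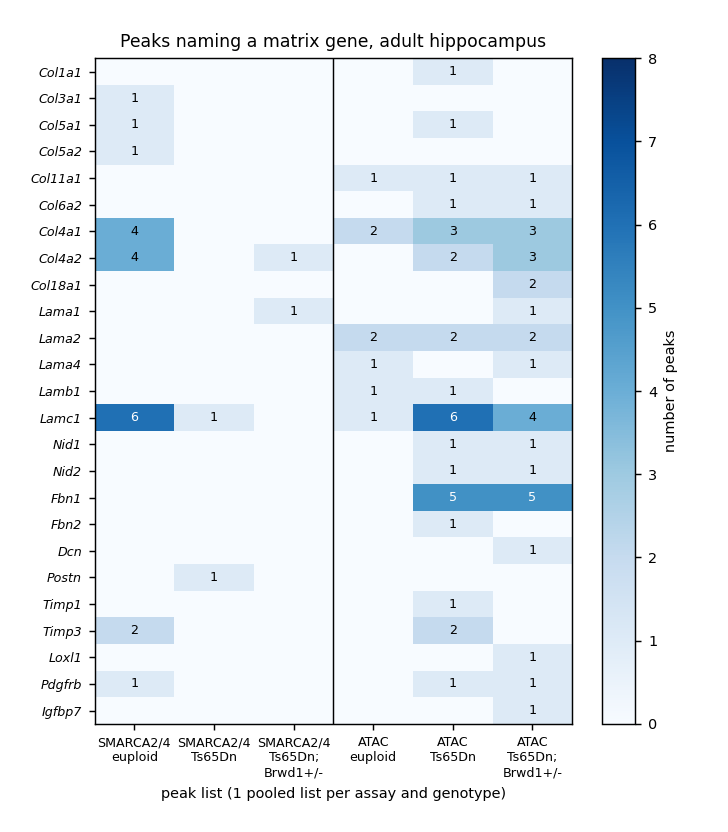
Number of peaks naming each of the 25 matrix genes with any peak (rows) in the 6 pooled peak lists of adult hippocampus (columns), as numbers on a colour scale from 0 peaks. Most SMARCA2/4 peaks are in the euploid column and most ATAC peaks in the columns of both trisomic genotypes.

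A peak in any list named 25 genes, and none named the other 15, among them Mmp2, Col1a2, Col8a1, Fn1, Sparc and Thbs1. ATAC peaks were found in all 3 genotypes for Col11a1, Col4a1, Lama2 and Lamc1. Of the 8 euploid ATAC peaks, 6 overlapped a Ts65Dn peak and 7 a Ts65Dn;Brwd1+/- peak by at least 1 base. Of the matrix gene peaks 19 of 30 in Ts65Dn and 19 of 29 in Ts65Dn;Brwd1+/- overlapped each other. Col1a1, Col5a1, Fbn2, Lamb1, Timp1 and Timp3 had an ATAC peak in Ts65Dn and none in Ts65Dn;Brwd1+/-, and Col18a1, Dcn, Igfbp7, Lama1, Lama4 and Loxl1 the reverse. The share of all peaks that overlapped between lists was not counted. Nor was the share of all genes with a peak in only 1 trisomic list, so these numbers describe the matrix genes without a background. At Col1a1 the Ts65Dn peak lay in the proximal promoter as the files annotate it (chr11:94937423-94937731, fold enrichment 3.59), and at Dcn the Ts65Dn;Brwd1+/- peak covered the start (chr10:97479520-97479730, fold enrichment 3.86). In culture, RNA was called higher in Ts65Dn than in the cultures labelled Ts65Dn;Brwd1+/- for 5 of the first 6 genes and lower for 1, Fbn2. Of the second 6 it was called higher in Ts65Dn for 3, Col18a1, Igfbp7 and Loxl1, and lower for 2, Dcn and Lama1. This stands beside 32 and 4 of all 40 genes, and the tissue, age and cells differ, so nothing was read from it. For Col4a1 the euploid ATAC peak (chr8:11312719-11312975, 257 bases) lay over the shared start with Col4a2, covering 199 bases of the Col4a1 promoter window and 136 of that of Col4a2. It is shown from the RefSeq genome GRCm38.p6, plus strand, as a region over the starts of 2 matrix genes, with the same letters in capitals.
Col4a1 and Col4a2 shared start: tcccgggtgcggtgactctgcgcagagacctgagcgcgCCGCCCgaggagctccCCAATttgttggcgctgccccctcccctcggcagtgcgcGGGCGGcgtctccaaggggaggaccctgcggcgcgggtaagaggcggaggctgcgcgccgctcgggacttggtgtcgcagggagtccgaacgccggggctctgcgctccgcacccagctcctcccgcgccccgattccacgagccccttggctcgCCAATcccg

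SMARCA2/4 peaks named Lamc1 and Postn in Ts65Dn, and Col4a2 and Lama1 in Ts65Dn;Brwd1+/-. The Postn peak (chr3:54369217-54369268, mm10), in the gene body, had a fold enrichment of 6.27 over input and a q-value of 6.27e-08. The Lamc1 and Col4a2 peaks had q-values of 0.275 and 0.183, above the 0.05 that the study's methods state as a filter. The sequence under the Postn peak is shown, from the RefSeq genome GRCm38.p6, plus strand, since Postn and Mmp2 led to the list, and it has no capitals as no motif was searched in it.
Postn peak in Ts65Dn: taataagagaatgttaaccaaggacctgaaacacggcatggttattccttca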

How the data were processed

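RNA-seq of 9 cultures, SMARCA2/4 ChIP-seq and ATAC-seq were used, each for 3 genotypes. The 40 genes, the groups and the gene lists were chosen with earlier results of these data known. Per the labels and the methods of the study, the authors aligned reads to mm10 with HISAT2 and made whole-number counts per gene. They name featureCounts, although the deposited count files end with the summary rows that htseq-count writes, and strand use is not given in the sources used here. The authors called peaks with MACS2 on uniquely aligned reads without duplicates and deposited the fold enrichment (a ratio) and q-values of 1 pooled list per genotype, annotated with the nearest gene. They state an FDR limit of 0.05, which the ChIP-seq lists exceed.

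From the counts, edgeR 4.0.16 (R 4.3.3) was run with filterByExpr, TMM scaling and the quasi-likelihood test on all 9 libraries, with genotype as the only term and Benjamini-Hochberg adjustment at 0.05 over 17173 genes. Levels per kilobase divide CPM by exon length in the mm10 annotation. Peaks were assigned by the gene name in the files, counted as shared at 1 overlapping base, and called promoter peaks within 3 kb of the start. Of each pathway or marker list, up to 3 genes per direction with the largest change past the threshold in a contrast were eligible to be named. The lists were other collagens, other basement membrane genes, collagen maturation, other matrix proteases and inhibitors, the TGF-beta pathway and matrix receptors, with markers of mural cells, endothelium, meningeal fibroblasts, choroid plexus, astrocytes, microglia and neurons. On simulated counts for the comparison of Ts65Dn;Brwd1+/- with euploid (16922 genes), 96% of 2-fold and 100% of 4-fold changes were recovered. These counts had the same spread for every gene, and only genes above 1 CPM were changed. The rates therefore do not hold for genes with more spread or fewer reads. Alternatives were other scalings and filters, DESeq2 1.42.0, a RUVr factor, a replicate block, only the 2 genotypes compared, an adjusted p of 0.1, each library left out, peaks assigned by overlap, and stricter peak limits. Deviations of same-numbered libraries from their group means correlated at r = 0.129, 0.206 and 0.263 for euploid and Ts65Dn. For Ts65Dn and Ts65Dn;Brwd1+/- these values were 0.279, −0.125 and 0.206. Libraries with different numbers were not compared, so whether the numbers pair libraries was not tested. The main fit used no pairing, and the replicate block moved the count of matrix genes called in Ts65Dn against euploid from 37 to 38. The sequence of 1 peak is not reported here.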

Additional observations from a re-analysis of the deposited data

How the results depend on the processing

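Counts of culture genes called, both directions summed, kept within 1.5 times of the main counts under every setting run. By direction, genes called higher than euploid in the cultures labelled Ts65Dn;Brwd1+/- went from 2400 to 1586 without replicate 3 of those cultures, and matrix genes called higher from 6 to 3 without replicate 2 or 3. Against euploid, 21 of the 37 matrix genes other than Mmp2, Postn and Lum were called in the cultures labelled Ts65Dn;Brwd1+/-, 21 to 27 under the other settings and 18 to 25 with 1 library left out. Whether the replicate numbers pair libraries was not tested. Between the cultures labelled Ts65Dn;Brwd1+/- and the others, deviations of same-numbered libraries correlated at −0.16 to 0.28. With the replicate block 27 of these matrix genes were called. Mmp2, Postn and Lum included, the block gave 30, 38 for Ts65Dn against euploid and 37 for Ts65Dn;Brwd1+/- against Ts65Dn, and 91 genes of the lists and 5397 of all genes against euploid. Against euploid, in the cultures labelled Ts65Dn;Brwd1+/-, the block added Col5a1, Col6a2, Col6a3, Col18a1, Loxl1 and Pdgfrb and lost no call. Signs changed only in uncalled genes. Col8a1 was at −0.178 to 0.042 over the left-out libraries, above 0 without euploid replicate 2 or Ts65Dn;Brwd1+/- replicate 1. Col4a1 was at −0.113 to 0.046, above 0 without euploid replicate 2, and at 0.016 with library total scaling. Fbn1 was at −0.184 to 0.016, above 0 without euploid replicate 2. Lama4 was at −0.543 to 0.285, above 0 without euploid replicate 1 or 2 or Ts65Dn;Brwd1+/- replicate 1. The cause was not tested. In the cultures labelled Ts65Dn;Brwd1+/- against euploid, calls lost with 1 library out were those of Lama1, Nid1, Fn1, Thbs1 and Mmp14. With 1 library out, 35 to 38 matrix genes were called in Ts65Dn against euploid, in place of 37. For Ts65Dn;Brwd1+/- against Ts65Dn, 35 to 36 were called, in place of 36. The filter of at least 10 reads in every library left out Lum, Lama4 and Timp1.

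Counts of matrix genes named by peaks moved with the peak limits, which leave fewer peaks. With peaks assigned by overlap with the gene or its 3 kb upstream, ATAC counts were 9, 18 and 18 in euploid, Ts65Dn and Ts65Dn;Brwd1+/- (48.1, 58.8 and 58.3% of protein-coding genes) against 6, 16 and 16 by the name in the files, and SMARCA2/4 counts were 8, 2 and 2 either way (33.1, 3.8 and 4.42% by overlap). With promoter peaks only, SMARCA2/4 counts went from 8, 2 and 2 to 4, 0 and 0 (25.6, 2.01 and 2.48% of protein-coding genes), and ATAC counts from 6, 16 and 16 to 3, 10 and 7 (38.2, 47.4 and 47.0%), in euploid, Ts65Dn and Ts65Dn;Brwd1+/-. At a fold enrichment of at least 4, ATAC counts were 3, 7 and 3 (27.1, 41.7 and 32.3%), and SMARCA2/4 counts were 1 in Ts65Dn (0.848%) and 1 in Ts65Dn;Brwd1+/- (1.70%), as they were with a q-value under 0.05 (0.930 and 2.05%). Lum, Lama4 and Timp1, with few reads per library, were the genes most limited by depth.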
